A study of Mus musculus with 10 samples.

Results

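Histamine is made, stored, cleared and sensed by a small set of gene products, and 6 of these genes are described here in mouse oligodendrocyte precursor cell (OPC) cultures and in leukocytes sorted from inflamed spinal cord. They are Hdc, which encodes the enzyme that makes histamine, Slc18a2, Hnmt, and the receptor genes Hrh1, Hrh2 and Hrh3. Each was taken by its symbol, and all 6 were found among the 19333 genes of the OPC table and among the 22064 genes of each sorted-cell table. The set was chosen because Hdc was higher in Apc-deleted OPC cultures and present in sorted cells. Those values are therefore a description and no test of the set.

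The study comprised 10 RNA sequencing libraries. Of the OPC libraries, 3 came from Olig2-Cre:Apc-fl/fl mice, in which Cre driven by Olig2 removes the floxed part of Apc, and 3 came from Apc-fl/fl littermates, called wild type, which carry the same floxed alleles. Olig2 is not restricted to OPCs and is also active in some neural progenitors. The cells were purified on antibody-coated plates (immunopanning) and kept with the OPC mitogen PDGFAA for 3 days. The sorted cells came from the inflamed cords of Pdgfra-CreER:Apc-fl/fl mice at day 18 after induction of EAE (experimental autoimmune encephalomyelitis), an autoimmune disease used to model multiple sclerosis. Pdgfra, which drives this inducible Cre, is a gene of OPCs, and all sorted groups share the genotype, with no control genotype beside them. The labels do not mention tamoxifen. They gave 1 library of CD4+ cells labelled Th1 and 3 libraries of CD11b+Gr-1+NK1.1+ cells labelled cytotoxic macrophages. Ages and the number of animals behind a library are not given in the labels, so p-values and SDs reflect library-to-library spread alone, and that may be technical.

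Histamine is formed from the amino acid histidine in a single step by histidine decarboxylase, the product of Hdc. Mast cells and basophils keep it in granules, and histaminergic neurons of the hypothalamus load it into vesicles with the transporter encoded by Slc18a2 (VMAT2). In mice, immature CD11b+ myeloid cells also express Hdc. In the brain histamine is inactivated mainly by the methyltransferase encoded by Hnmt. The receptors are G protein-coupled: H1 acts through Gq and calcium, H2 through Gs and cyclic AMP, and H3, found mostly on neurons, through Gi as a brake on transmitter release. In mice, Hrh1 was identified as Bphs, a locus that controls sensitivity to histamine after pertussis toxin and susceptibility to EAE.

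OPC values come from the authors' deposited table, which gives 1 comparison with a mean of normalized counts, a log2 fold change and its standard error (SE) for each gene, and no value per library. The spread between cultures and the depth of each are therefore unknown. The table does not name its numerator. Signs are given here as Apc-deleted over wild type because Notum, Sp5, Lef1 and Axin2, which Wnt signalling induces, were then higher, so the direction of every OPC value rests on that reading. Apc itself had -0.14 (SE 0.13) in the authors' deposited table, where a value over the whole gene does not isolate the floxed part. As a check of the culture, the neuronal gene Tubb3 had 65447 normalized counts per kb of exon in the authors' deposited table, against 225 for the OPC receptor gene Pdgfra and 5247 for Olig1. All 7 listed neuron markers had a row, with means of 8117 normalized counts or more in the authors' deposited table, so neuronal RNA was abundant in cultures labelled OPC. The library labelled Th1 summed to 3051730 estimated reads, and the macrophage libraries to between 23174908 and 23564215. Pairs of macrophage libraries differed by a chi-square per gene of 1.29 to 2.53 over genes with at least 20 summed reads, where counting noise alone gives about 1. They were kept as 3 libraries, although 1 pair lay close to counting noise, and a value above 1 does not show separate animals.

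Hdc (ENSMUSG00000027360.5, chromosome 2, 126593667 to 126619299, minus strand, GRCm38) was the member that stood out in the OPC cultures. The authors' deposited table puts its log2 fold change at 1.97 (SE 0.31), a 3.91-fold higher level in Apc-deleted cultures, with 1 SE to either side spanning 3.15-fold to 4.84-fold. The mean was 133 normalized counts in the authors' deposited table. With 3 libraries a genotype, that mean and fold imply about 212 normalized counts in Apc-deleted cultures and 54.4 in wild type. The adjusted p was 2.88e-07 in the authors' deposited table, where Hdc ranked 67 by log2 fold change and 13 by p-value among 19333 genes. Of the 6 members, Hdc alone passed an adjusted p of 0.05, against 0.548% of all genes in the authors' deposited table and 0.393% in the higher direction. Since Hdc was chosen on this contrast, nothing is read from that count.

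The stretch around the start of Hdc is shown because Apc restrains beta-catenin, which acts through TCF/LEF factors, and Hdc was the member that differed. The promoter of Hnmt, the gene for the clearing enzyme, whose level did not pass the threshold, stands beside it. Both are 300 bases on the minus strand of GRCm38.p6 from RefSeq, 250 before the start and 50 from it on, read 5′ to 3′, at chr2:126618629-126618928 for Hdc and chr2:24049330-24049629 for Hnmt. The Hdc start used, 126618678, is that of its GENCODE protein-coding transcript Hdc-201. The gene span given above reaches 621 bases further because of a non-coding transcript, Hdc-205, so the 250 bases lie inside that span. Capitals mark CTTTGAT or CTTTGAA, core letters bound by TCF/LEF factors, on either strand.
Hdc: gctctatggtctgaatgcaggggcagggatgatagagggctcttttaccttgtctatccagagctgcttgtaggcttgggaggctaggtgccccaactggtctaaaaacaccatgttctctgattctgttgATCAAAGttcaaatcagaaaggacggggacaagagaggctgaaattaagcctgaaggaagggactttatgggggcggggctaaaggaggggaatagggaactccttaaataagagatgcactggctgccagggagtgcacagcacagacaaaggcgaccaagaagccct
Hnmt: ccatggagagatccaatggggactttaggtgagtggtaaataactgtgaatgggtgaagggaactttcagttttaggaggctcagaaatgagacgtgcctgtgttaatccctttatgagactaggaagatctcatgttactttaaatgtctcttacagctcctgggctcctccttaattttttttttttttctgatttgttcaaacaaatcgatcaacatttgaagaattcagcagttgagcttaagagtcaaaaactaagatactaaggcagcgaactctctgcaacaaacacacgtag

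The Hdc window held CTTTGAT once, as its reverse complement ATCAAAG, beginning 119 bases before the start. All 6 members had an entry, 10 starts in all, and the Hdc start was the 1 entry with either motif. Over 32851 RefSeq promoter windows of the same length, CTTTGAT was found in 3.73% and either motif in 8.65%. The Hdc window also held GGGCGG, the letters of a GC box, 48 bases before the start, which 35.7% of all windows have, and CANNTG, the E-box letters, once, which 72.3% have. TATAAA and the GATA-type letters AGATAA, searched on both strands, were not found in it and occurred in 13.6% and 11.2% of all windows. The motifs searched do not overlap in the Hdc window. Base composition differed between members, with 50.7% G and C in the Hdc window, 39.3% for Hnmt, 64% for Slc18a2 and 79% for Hrh3. These matches describe letters and show no binding.

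Slc18a2, which loads histamine and other monoamines into vesicles (ENSMUSG00000025094.7, chromosome 19, 59260896 to 59296012, plus strand), was at 0.13 (SE 0.33) from a mean of 37.1 normalized counts in the authors' deposited table. Hnmt, the gene for the clearing enzyme (ENSMUSG00000026986.14, chromosome 2, 24002910 to 24049394, minus strand), was at -0.29 (SE 0.27) from a mean of 68.3 in the authors' deposited table. Neither passed the threshold, so the values for synthesis, storage and clearance did not share a direction that the table's errors could resolve.

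The receptor genes lay near 0. Hrh1 (ENSMUSG00000053004.9, chromosome 6, 114397936 to 114483296, plus strand) had 0.11 (SE 0.30) from a mean of 50.8 normalized counts in the authors' deposited table. Hrh2 (ENSMUSG00000034987.4, chromosome 13, 54192129 to 54236180, plus strand) was at -0.01 (SE 0.27) from a mean of 79.5 in the authors' deposited table. Hrh3 (ENSMUSG00000039059.11, chromosome 2, 180099465 to 180104488, minus strand) was at 0.37 (SE 0.24) from a mean of 135 in the authors' deposited table, with the lowest unadjusted p of the members after Hdc, 0.115. The adjusted p of each of the 5 members other than Hdc was 1 after rounding in the authors' deposited table. These values do not show that the genotypes were alike: 1 SE to either side of the Hrh3 value spans 1.1-fold to 1.53-fold, and of the Hnmt value 0.675-fold to 0.988-fold. The antisense genes Gm16578, Gm17180 and Gm29261 overlap Hrh2, Hrh3 and Slc18a2, and no source used here says whether the counting used strand, so reads of these pairs may not be separated.

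**Figure D1:**
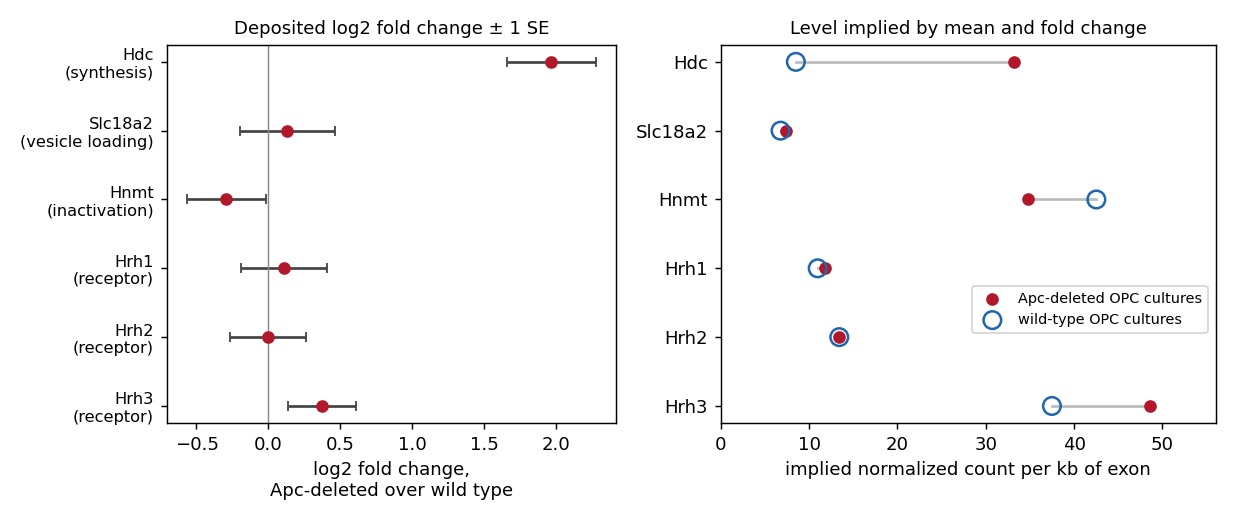
The 6 histamine genes in the OPC cultures, with the deposited log2 fold change of Apc-deleted over wild type and 1 SE to either side (left) and the level per kb of exon implied by the deposited mean and fold change with 3 libraries a genotype (right, filled points for Apc-deleted and open rings for wild type). Hdc lies at 1.97, and the other members lie between -0.29 and 0.37.

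Per kb of exon, the mean level over both genotypes ran from Hrh3 (43.0 normalized counts per kb) and Hnmt (38.6) through Hdc (20.9), Hrh2 (13.4) and Hrh1 (11.4) to Slc18a2 (7.10) in the authors' deposited table with GENCODE M21 exon lengths. The implied level of Hdc was 33.3 normalized counts per kb in Apc-deleted cultures and 8.51 in wild type. In Apc-deleted cultures that stood beside Hnmt at 34.7, and in wild type between Hrh1 at 11.0 and Slc18a2 at 6.78. Without values per library, no spread can be set beside these orders.

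**Figure D2:**
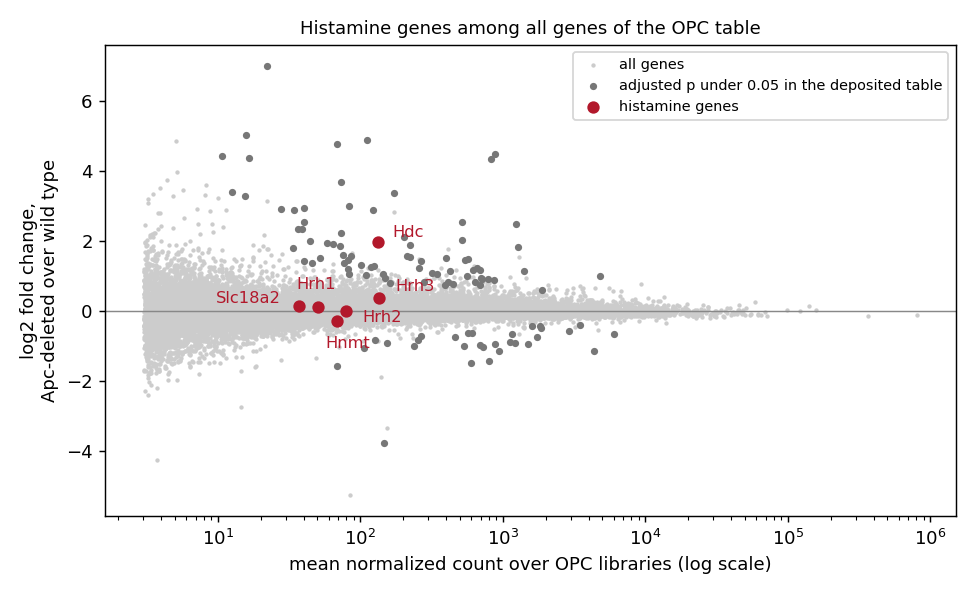
Deposited log2 fold change of Apc-deleted over wild-type OPC cultures against the mean normalized count (log scale) for all 19333 genes, with genes at an adjusted p under 0.05 in dark grey and the 6 histamine genes in red. Hdc stands at 133 normalized counts and 1.97, while Hrh3, at a similar mean of 135, stands at 0.37.

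The error of the Hdc value was not small for its level. Among 1215 genes with a mean between 0.8 and 1.25 times that of Hdc, the median SE was 0.21 in the authors' deposited table, so that of Hdc was 1.45 times as large and exceeded 93% of them. Of those genes 2 had a larger log2 fold change than Hdc. For the other members the SE was between 0.942 (Slc18a2) and 1.12 (Hrh3) times the median of genes at their own level.

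A few phagocyte markers were higher in the same comparison as Hdc, and most listed ones were not. Of 10 listed macrophage and monocyte markers 7 were in the authors' deposited table, and 2 of these rose, the lysozyme gene Lyz2 by 4.33 (SE 0.96) and the endosomal gene Cd68 by 1.54 (SE 0.36), with adjusted p of 0.00243 and 0.00729. The growth factor receptor gene Csf1r lay at 0.01 (SE 0.16), and the authors' deposited table has the phagocytosis receptor gene Mertk at 0.0015 (SE 0.15), the Fc receptor gene Fcgr1 at 0.05 (SE 0.46) and the mannose receptor gene Mrc1 at -0.08 (SE 0.20). Adgre1 (F4/80), with 1.87 (SE 0.65) in the authors' deposited table, missed the threshold. The 7 markers summed to an implied 3469 normalized counts in Apc-deleted cultures and 1740 in wild type, and most of that difference was Lyz2, whose SE was 7.09 times the median of genes at its level. Without Lyz2 the other 6 summed to an implied 1901 in Apc-deleted cultures and 1662 in wild type. The list median was 0.05 in the authors' deposited table, against 0.00 over all genes. The part of these cells in the Hdc value was not tested, and in bulk cultures more cells of a type and more RNA per cell cannot be told apart.

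Of the 11 mast cell markers 4 were in the authors' deposited table and none passed, with Kit, which is not restricted to mast cells, at -0.15 (SE 0.14), the prostaglandin synthase gene Hpgds at 0.26 (SE 0.22), Gata2 at 0.13 (SE 0.46) and the tryptase gene Tpsb2 at a mean of 3.71 normalized counts. The defining protease genes Cpa3, Cma1 and Mcpt4 and the IgE receptor genes Fcer1a and Ms4a2 had no row there. The measured mast cell markers summed to an implied 645 normalized counts in Apc-deleted cultures and 671 in wild type. Kit, with a mean of 505 normalized counts in the authors' deposited table, made up most of that sum. The sum therefore says little about mast cells. Of 7 basophil markers 2 had a row, and neither passed. All 9 neutrophil markers in the authors' deposited table lay below 0 and none passed, with S100a8 at -0.14 (SE 0.17), Ngp at -0.18 (SE 0.25) and S100a9 at -0.07 (SE 0.28). Their implied sums were 538 normalized counts in Apc-deleted cultures and 608 in wild type. None of 7 microglia, 7 neuron, 5 astrocyte or 2 measured T cell markers passed in the authors' deposited table. Of the 7 microglia markers 4 lay above 0, and the list median was 0.04. The highest were Tmem119 at 0.87 (SE 0.31) and Sall1 at 0.85 (SE 0.26) in the authors' deposited table. Their list summed to an implied 2779 normalized counts in Apc-deleted cultures and 2368 in wild type. Most of that difference was Sall1, at a mean of 549, whose SE was 1.76 times the median of genes at its level. Cx3cr1, the most abundant of the list at a mean of 1662, lay at 0.07 (SE 0.12) in the authors' deposited table. Of 7 OPC markers 5 lay above 0, and the list median was 0.03. Only Gpr17, a receptor of committed precursors, passed, and it fell by 1.16 (SE 0.15) in the authors' deposited table.

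By likeness to Hdc over 3 values, the OPC log2 fold change and the log2 of TPM + 1 in the macrophage libraries and in the library labelled Th1, the nearest 5 of 13359 genes were Tnfaip2, Nfam1, Cybb, Cd84 and Igsf6. Their Euclidean distances ran between 0.600 and 1.04 log2 units. Because they were picked on these values, their OPC and macrophage levels are a description with no test. In the authors' deposited table Cd84, a leukocyte surface receptor gene, was at 1.98 (SE 0.48) and Cybb, which encodes a subunit of the phagocyte NADPH oxidase, at 1.32 (SE 0.36). Tnfaip2 had 1.43 (SE 0.45), Nfam1 1.89 (SE 0.64) and Igsf6 1.41 (SE 0.71) in the authors' deposited table. Of the 5, Cd84 and Cybb passed there, Cybb barely with an adjusted p of 0.0499. Tnfaip2, Nfam1 and Igsf6 did not pass.

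**Figure D3:**
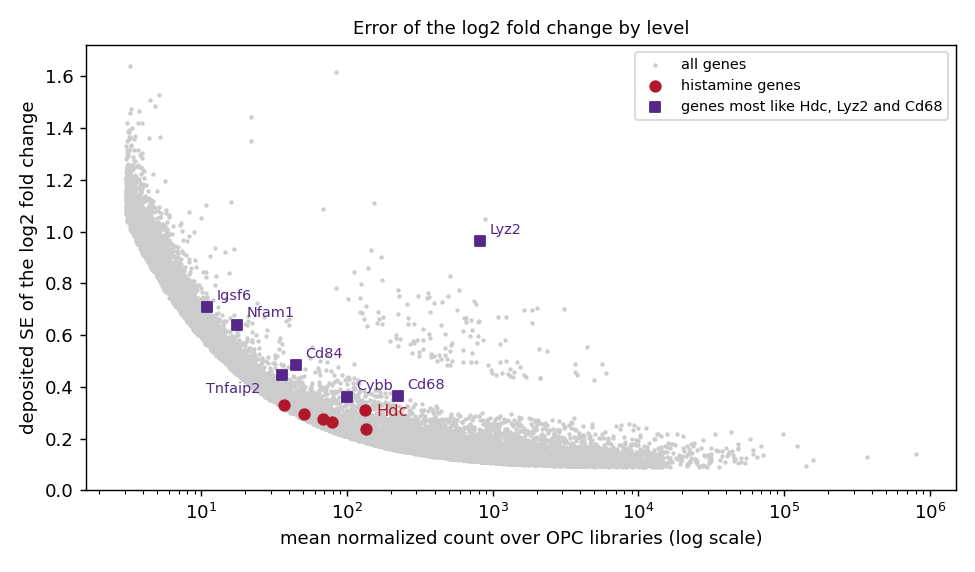
Deposited SE of the log2 fold change against the mean normalized count (log scale) in the OPC table, for all genes (grey), the 6 histamine genes (red circles) and the 5 genes most like Hdc with Lyz2 and Cd68 (squares). Hdc lies above most genes of its level at 0.31, and Lyz2 lies far above at 0.96.

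Beyond the members, a list of 26 genes of amine synthesis, transport and breakdown gave no called gene. Of these, 20 were in the authors' deposited table, 7 of them above 0, with a median log2 fold change of -0.05 against 0.00 over all genes. The most abundant were Aldh2, an aldehyde dehydrogenase that acts after oxidative deamination, at -0.0034 (SE 0.10), the monoamine oxidase gene Maoa at -0.07 (SE 0.11) and the GABA synthesis gene Gad2 at -0.08 (SE 0.16) in the authors' deposited table. Ddc, the related decarboxylase that makes dopamine and serotonin, was at -0.17 (SE 0.25), and Slc22a3, an organic cation transporter that takes up histamine, had -0.41 (SE 0.22) in the authors' deposited table. Neither passed. Of 10 listed genes of histaminergic and monoaminergic neurons 9 had a row, and Hdc alone passed. The 12 signalling genes downstream of the receptors were all in the authors' deposited table, 5 above 0, with a median of -0.01 and none past the threshold. The most abundant of them were the Gi subunit gene Gnai2 at 0.12 (SE 0.11), the phospholipase gene Plcb1 at -0.12 (SE 0.12) and the calcium channel gene Itpr2 at -0.33 (SE 0.14), all from the authors' deposited table.

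The sorted cells were then examined for the same genes. In the macrophage libraries Hdc had 29.18, 29.18 and 29.83 TPM, from 2925, 2993 and 3034 reads, a mean of 29.4 ± 0.375 TPM (SD, n = 3). That exceeded 91.7% of the genes with a TPM above 0. The 3 libraries lay together: the coefficient of variation of the Hdc CPM (counts scaled by library total) was 1.23%, against 1.83% from counting alone. Presence in these libraries was part of the choice of Hdc, so the level is a description.

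Hnmt had 2.89, 2.85 and 3.28 TPM, a mean of 3.01 ± 0.238 (SD, n = 3), and within a library the TPM of Hdc was 9.81 ± 0.624 times that of Hnmt (SD, n = 3). Hrh2, the receptor gene coupled to cyclic AMP, had 1.07, 0.95 and 0.85 TPM, from 177, 152 and 136 reads. Hrh2 was the receptor gene with the most reads in these cells. Its coefficient of variation was 14.1%, against 8.03% from counting.

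Slc18a2 had 10, 20 and 24 reads, or 0.06, 0.12 and 0.14 TPM. Hrh3 had 2 reads in 1 library and 0 in the other two. Hrh1 had no read in any macrophage library, and counting error over the group leaves room for at most 0.0427 CPM there. By TPM the order was Hdc, Hnmt, Hrh2, Slc18a2, Hrh3 and Hrh1, and the libraries' ranges of neighbours did not overlap among the first 4, while Hrh3 and Hrh1 could not be told apart at this depth. Synthesis and clearance transcripts were thus present with the H2 receptor gene, while the vesicle transporter and the H1 and H3 receptor genes were at or near 0.

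Cells known for stored histamine left little RNA in the macrophage libraries. Of 10 measured mast cell markers none reached 1 TPM and 5 had no read, among them the defining genes Cpa3, Mcpt4 and Fcer1a, with a summed level between 1.04 and 1.1 TPM. Hpgds was the highest at 0.8 TPM, followed by the chymase gene Cma1 at 0.220 TPM and Kit at 0.0367 TPM. The 7 basophil markers summed to between 0.170 and 0.240 TPM, with Mcpt8 at 0.140 TPM. Hdc, at 29.18 TPM or more in each library, thus stood above the sum of either list. The 10 neutrophil markers summed to between 423611 and 426835 TPM, the macrophage and monocyte markers to between 33722 and 34297 TPM, the 7 microglia markers to between 80.7 and 82.2 TPM, and the 6 T cell markers to between 2.94 and 3.68 TPM. Most of the neutrophil sum was S100a8 at 310396 TPM and S100a9 at 64978 TPM, with Retnlg next at 30979 TPM. The macrophage and monocyte sum was led by Lyz2 at 22679 TPM and Ly6c2 at 6376 TPM. The neutrophil sum was thus the larger. Its excess rests mostly on those S100 genes, with Camp at 10089 TPM and Ngp at 7188 TPM after Retnlg. Most of the macrophage and monocyte sum was Lyz2 in turn. Macrophage is used here as the libraries' label and not as a checked identity. Which cells carried the Hdc reads was not tested.

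**Figure D4:**
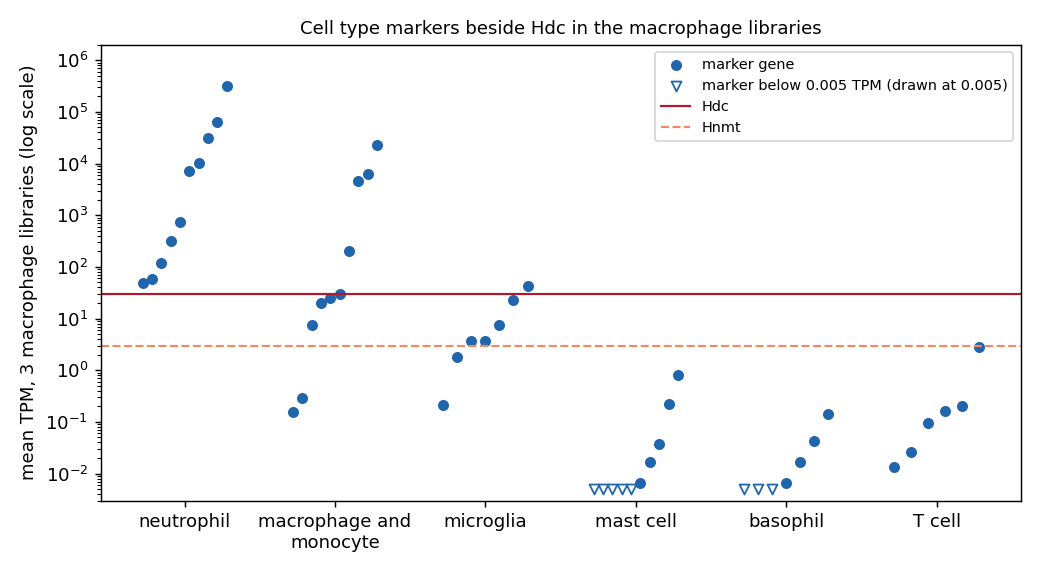
Mean TPM (log scale) of the listed marker genes of 6 cell types in the 3 macrophage libraries, each point a gene, with Hdc (solid line) and Hnmt (dashed line) for reference. Hdc at 29.4 TPM lies above every mast cell and basophil marker and below every neutrophil marker.

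Of the amine genes, 3 of 26 reached 1 TPM in the macrophage libraries, among them Aldh2 at 43.5 ± 0.233 and Odc1, which makes putrescine, at 1.92 ± 0.142 TPM (SD, n = 3). Ddc, the decarboxylase of other amines, was at 0.0233 ± 0.0231 TPM. Of the 12 signalling genes 7 reached 1 TPM, led by Gnai2 at 296.9 ± 4.0, the Gs subunit gene Gnas at 79.8 ± 2.22 and Gnai3 at 3.98 ± 0.176 TPM (SD, n = 3).

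In the library labelled Th1 all 6 members were blank, and blanks were taken as 0 reads. Each of the 6550 genes with a count there had a read, so no 0 was recorded as such. If the blanks are true zeros, 0 of 3051730 reads leaves room for 0.983 CPM. edgeR's quasi-likelihood test set this library against the macrophage libraries, whose spread alone entered the fit. Hdc had 0 reads there, against 126, 127 and 129 CPM in the macrophage libraries. By library totals alone, Hdc would have had about 389 reads at that depth, and fewer with TMM or DESeq2 size factors. It was at least 16.1-fold lower in the library labelled Th1, the smallest bound over 3 scalings with a floor of 3 reads in that library, and edgeR gave an adjusted p of 2.09e-13. By this rule (adjusted p under 0.05 and at least 4-fold) 68.2% of the 11447 genes tested were called, 13.7% higher and 54.6% lower, so the call is shared with most of them. Of the called genes 79.9% were lower, against 63.1% with DESeq2 size factors, 88.1% with library totals alone and 56.3% by the DESeq2 test. Of 333 genes between 0.8 and 1.25 times the macrophage TPM of Hdc, 100 likewise had no read in the library labelled Th1.

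Hnmt had 0 reads in the library labelled Th1, against 7.64, 7.64 and 8.78 CPM in the macrophage libraries. Its bound was at least 1.01-fold lower over the 3 scalings, with an edgeR adjusted p of 0.000526. Hrh2 had 0 reads, against 7.64, 6.45 and 5.79 CPM in the macrophage libraries, with an edgeR adjusted p of 0.00268. No bound held for Hrh2 over all 3 scalings, and it lost its call with DESeq2 size factors (adjusted p = 0.0770) and with the DESeq2 test (0.102). Hnmt lost its call with the DESeq2 test (adjusted p = 0.0792). For Hnmt and Hrh2 the 4-fold part of the call rests on a fitted fold against 0 reads, since their bounds with TMM were 2.89-fold and 2.39-fold. For Slc18a2 (edgeR adjusted p = 0.274), at 0.432, 0.849 and 1.02 CPM in the macrophage libraries, about 2.34 reads would have been seen, so a difference was not detectable at this depth. Hrh1 and Hrh3 did not pass the filter on low counts.

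**Figure D5:**
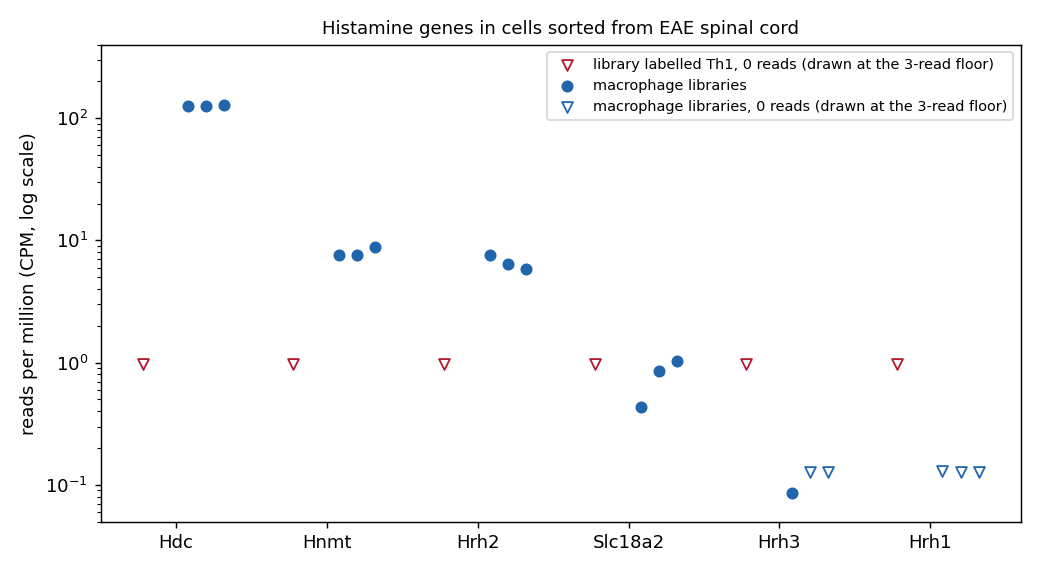
CPM (log scale) of the 6 histamine genes in the library labelled Th1 (left of each pair) and in the 3 macrophage libraries (right), with libraries at 0 reads drawn as open triangles at the level of 3 reads. Hdc, Hnmt and Hrh2 lie above the floor of the library labelled Th1 at 0.983 CPM in every macrophage library.

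The library labelled Th1 lacked more than these genes. A read was found for 29.7% of its genes, against 61.9% to 62.3% in the macrophage libraries. Of the 6 listed T cell markers 5 had no read, Cd3e, Cd3d, Cd3g, Cd4 and Cd28, and the kinase gene Lck had 422, so Th1 is used here as its label and not as a checked identity. The neutrophil markers summed to 25173 TPM in it and the macrophage and monocyte markers to 11268 TPM, with no read for Hdc beside them. Lyz2 alone was 11006 TPM of the latter sum. Of each of these lists 3 markers had no read there either. They were Ly6g, Mmp8 and Mmp9 for neutrophils and Ccr2, Ly6c2 and Plac8 for macrophages and monocytes. Adgre1 and Fcgr1 were higher there than in the macrophage libraries, at 81.6 and 167 TPM against means of 7.63 and 25.2. Ltf and Cxcr2 were higher as well, at 709 and 89.4 TPM against means of 315 and 48.4. All other markers of both lists were lower there. In the macrophage libraries Hdc came with 423611 TPM or more of neutrophil markers. Of the mast cell markers 1 read was found in the library labelled Th1, in Hpgds, and of the basophil markers none.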

How the data were processed

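Values were taken as the authors deposited them. The submitters' processing notes name the build GRCm38; no aligner or counter is given in the sources used here. For the OPC libraries the deposited table holds, per the file headers, a mean of normalized counts (a signal with no value per library), a log2 fold change with its SE, a statistic (a score, the log2 fold change over its SE), and p-values before and after adjustment. edgeR and DESeq2 could therefore not be run on OPC libraries, as the design had allowed for, and the deposited adjusted p-values were used. For the sorted cells, the TPM and the estimated counts of reads deposited by the authors were used, per the file headers. Of the deposited read counts 80.8% are exactly whole. Blanks were taken as 0 and counts were rounded. The column codes of the macrophage libraries appear in no label, so those columns belong to the group and to no replicate number. 8 per-library columns were not used.

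A quasi-likelihood fit in edgeR 4.0.16 (TMM scaling, filterByExpr) set the library labelled Th1 against the macrophage libraries; calls needed a Benjamini-Hochberg adjusted p below 0.05 with a change of 4-fold or more. The script was tested on simulated data with equal numbers of genes raised and lowered. That test does not cover a contrast in which most called genes are lower. DESeq2 1.42.0 gave other size factors and another test. Implied levels per genotype assume 3 libraries each. Exon lengths and coordinates are from GENCODE M21 (99.8% of OPC identifiers matched), promoters from RefSeq GRCm38.p6. Intervals and floors cover counting error only. The members and the 12 gene lists were chosen with earlier results of these data known. Named genes were mainly Apc, the 6 members, list members past the threshold or among the 3 most abundant of a list, and the 5 genes most like Hdc. Not every such list member is named. Outside this rule, Pdgfra, Tpsb2, Cpa3, Mcpt4, Fcer1a and Ms4a2 were named as well. The same holds for Notum, Sp5, Lef1, Axin2, the antisense genes and the neighbours of Hdc. Ddc, Slc22a3, Fcgr1, Mrc1, Adgre1, Tubb3, Olig1 and the T cell genes were chosen after their values were seen. So were Tmem119, Ccr2, Ly6g, Mmp8, Mmp9, Ltf, Cxcr2 and Camp. Fits ran in R 4.3.3, tables in Python 3.11.15 with pandas 2.3.3, and plots in matplotlib 3.10.9. The values of 1 listed gene are not reported here.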

Additional observations from a re-analysis of the deposited data

How the results depend on the processing

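In the OPC cultures 106 genes passed in the authors' deposited table. Adjusting again over genes with a mean of at least 10 or at least 100 normalized counts gave 107 and 76, and Hdc passed under both. No library could be left out there. No paired analysis was possible because the OPC table holds no value per library and the sorted groups share fewer than 2 replicate numbers. For the library labelled Th1 over the macrophage libraries, 7812 genes were called by edgeR, 7778 to 7790 with 1 macrophage library left out, and 4417 by the DESeq2 test; the cause of that last difference was not tested. Of the calls, 20.1% were higher and 79.9% lower with TMM, 36.9% and 63.1% with DESeq2 size factors, and 11.9% and 88.1% with library totals alone. The median log2 fold change of tested genes, -5.61, moved by 1.29 and by -0.64 under those scalings. Hdc was called lower under every alternative run, with an adjusted p of 0.000279 by DESeq2. The calls of Hnmt and Hrh2 were lost as given above, in 3 results in all. The library labelled Th1 has no replicate, so its own spread is assumed to equal that of the macrophage libraries. That spread was small, with an edgeR common dispersion of 0.000501, and it may be technical. The depth of the library labelled Th1 limits what can be said of Slc18a2, Hrh1 and Hrh3.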

Other observations

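The genes around Hdc on chromosome 2 did not share its value. Of the 8 nearest measured genes by start, 4 on each side, the authors' deposited table called none. Slc27a2, a fatty acid transporter gene 5.42 kb away, had -0.30 (SE 0.38) in the authors' deposited table. Gabpb1, a transcription factor subunit gene 8.14 kb away, had 0.18 (SE 0.28) in the authors' deposited table, the highest value of the 8. The lowest was -1.56 for Fam227b, at a mean of 3.67 normalized counts in the authors' deposited table.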
